A study of Mus musculus with 32 samples.

Results

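The Hedgehog pathway genes described here are 9 genes picked by name, Shh, Ptch1, Smo, Gli1, Gli2, Gli3, Hhip, Boc and Gas1, out of 55492 rows of a table of transcript levels. Their levels were measured in mouse embryonic stem cells and in retinal organoids grown from them. All 9 have a row, and 7 of the 9 reached the level needed for a test. The 4 kinds of culture were the Rx:GFP line (genotype WT), the line labelled Mettl3 KO, and that knockout line overexpressing the construct WTMETTL3-GRBD, without Dex and with Dex at 10 µM. METTL3 is the active part of the enzyme that methylates adenosines in RNA to N6-methyladenosine (m6A). Per the series' design text, the construct is cytosolic without Dex and moves to the nucleus with it. Each culture was sampled at days 0, 2, 4 and 6, with 2 libraries a group, 16 groups and 32 libraries in all. The day 0 samples are stem cells and carry no AGN label, while samples of days 2, 4 and 6 are organoids in medium with AGN at 0.1 µM. The treatment protocol lists Dex only for the organoids, yet a pair of day 0 libraries is labelled as treated with Dex. No dose or duration is given for that pair. The labels do not say whether the lines are single clones. It is also not stated whether the 2 libraries of a group came from separate cultures, so the p-values below measure only the spread between these libraries.

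Hedgehog ligands such as SHH are secreted proteins that bind the receptor PTCH1 and thereby relieve its hold on the membrane protein SMO. Active SMO signals, through the primary cilium, to the GLI transcription factors, of which GLI1 and GLI2 mostly switch genes on and GLI3 is mostly cut to a repressor when no ligand is present. Ptch1, Gli1 and Hhip are themselves switched on by the pathway, and their RNA is widely used as a readout of it. In the early eye and forebrain, SHH from the ventral midline favours ventral fates, and dorsal tissue is exposed to little of it.

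By the GENCODE M21 annotation of GRCm38 (mm10), Shh lies on chromosome 5 from 28456815 to 28467256 and Smo on chromosome 6 from 29735503 to 29761365. Ptch1 (63508328 to 63573598), Gas1 (60174405 to 60177365) and Gli3 (15463235 to 15730026) all lie on chromosome 13. Gli1 spans 127329882 to 127341974 on chromosome 10, Gli2 spans 118834132 to 119053619 on chromosome 1, Boc spans 44485049 to 44558897 on chromosome 16 and Hhip spans 79965851 to 80058006 on chromosome 8. Gli1 overlaps the protein-coding gene Arhgap9 and the antisense gene Gm47200 on the opposite strand, and Shh overlaps the antisense gene 9530036O11Rik. Each of the other members also overlaps an annotated gene. Ptch1 overlaps A930032L01Rik and Smo overlaps Gm13717 on the same strand, and Gas1 overlaps Gm48488 on the opposite strand. The sources used here do not say whether the counting used strand. The overlaps are of whole gene spans, and whether exons overlap was not checked. Where they do, reads on the same strand, or on either strand if strand was not used, could not be told apart. The levels of the members may be uncertain to that extent.

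The stretches before 3 start sites are shown because Ptch1 is the classic target gene of the GLI factors, Gli2 is the only one of the 6 members with a window at hand that has a match to their core motif, and Gas1 is the member with the widest range of levels. RefSeq promoter windows of build GRCm38.p6, 250 bases before to 50 after a start site, were found for 6 of the 9 members, not for Shh, Gli1 or Boc. Only the 250 bases before the start are printed, 5′ to 3′ on the gene's strand. Capitals mark the core motif ACCACCC or its reverse complement GGGTGGT. Ptch1 is shown at chr13:63565736-63565985 (minus strand), Gli2 at chr1:119053620-119053869 (minus strand) and Gas1 at chr13:60177536-60177785 (minus strand). The Ptch1 window lies inside the annotated gene, whose 5′ end is at 63573598, and so precedes an internal start site. The gene has 10 annotated transcripts.
Ptch1: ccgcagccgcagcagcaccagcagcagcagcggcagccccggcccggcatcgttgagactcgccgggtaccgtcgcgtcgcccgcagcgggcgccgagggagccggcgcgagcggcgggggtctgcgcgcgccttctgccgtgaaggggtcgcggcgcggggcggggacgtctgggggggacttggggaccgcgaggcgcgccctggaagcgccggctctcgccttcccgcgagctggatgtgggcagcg
Gli2: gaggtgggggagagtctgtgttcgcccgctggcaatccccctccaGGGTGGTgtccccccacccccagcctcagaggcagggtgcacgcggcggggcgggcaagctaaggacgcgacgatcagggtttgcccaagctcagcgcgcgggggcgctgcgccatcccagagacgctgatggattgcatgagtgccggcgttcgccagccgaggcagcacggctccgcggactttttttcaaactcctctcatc
Gas1: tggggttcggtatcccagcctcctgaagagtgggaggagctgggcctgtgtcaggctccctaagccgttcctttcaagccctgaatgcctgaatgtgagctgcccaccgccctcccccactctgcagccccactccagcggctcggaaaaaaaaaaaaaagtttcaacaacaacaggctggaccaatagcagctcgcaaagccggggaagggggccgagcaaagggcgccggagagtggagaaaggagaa
The GLI binding motif GACCACCCA, searched on both strands, was in none of the 6 windows of 300 bases, and in 83 of all 32817 windows (0.253%). Its core ACCACCC, which is part of the longer motif, was in 4.61% of all windows and in 1 of the 6, that of Gli2, where it starts 205 bases before the start site. No match in a window says only that these letters are not there. The Ptch1 window was 76.3% G and C with 47 CpG dinucleotides, the Gli2 window 67.3% with 28 and the Gas1 window 62.3% with 17, beside medians of 52.7% and 7 over all windows.

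Levels are FPKM, fragments divided by the transcript's length and the library's mapped total, so genes can be compared on a scale per length. Depth, estimated from the steps between low values, ran from 28.24 to 54.3 M fragments a library (M, mega), with a median of 37.8 M. Libraries labelled KO did not have less Mettl3 RNA, with 37.32 and 37.86 FPKM at day 6 against 35.11 and 36.33 in WT, and a level summed over a gene cannot show a small deletion. Levels of eGFP, the reporter, were 189.57 and 200.34 FPKM in WT at day 6, 0 and 0.29 in KO, 0.1 and 0.3 without Dex and 132.12 and 139.46 with Dex. The eye field list (Rax, Six3, Six6, Lhx2, Pax6) summed to between 646.68 and 680.93 FPKM in WT at day 6, between 116.83 and 118.42 in KO, between 182.3 and 185.92 without Dex and between 416.33 and 416.53 with Dex. Organoids labelled KO were thus retinal organoids by label but low in 4 of 5 eye field genes. In bulk RNA, fewer cells of a type and less RNA per cell cannot be told apart.

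Shh, the ligand, was close to the limit of detection in all but the WT organoids of day 6. WT held 0.18 and 0.31 FPKM at day 6, about 20 and 30 fragments, and 0.03 and 0.04 at day 0. KO held 0.04 and 0.05 FPKM at day 6, about 4 and 6 fragments, Dex held 0.01 and 0.02, and both no-Dex libraries are listed at 0. At day 6 both WT libraries were thus above every library of the other cultures, whereas at days 0, 2 and 4 all libraries lay between 0 and 0.06 FPKM and the groups overlapped. A count of 3 fragments corresponds to between 0.0216 and 0.0419 FPKM of Shh, depending on the library, and such limits cover counting error only. Shh did not reach the level for a test (at least 2 libraries at 1 FPKM or more). With that minimum dropped, which put 34331 genes in the fit, its KO against WT change at day 6 was -0.25 on the log2(FPKM + 1) scale (limma, adjusted p = 4.79e-06), and its Dex against WT change was -0.29 (adjusted p = 8.4e-07). The scale compresses such low values, and the ratio of the group means was 5.44-fold lower in KO.

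Ptch1, the receptor, had its highest group means in WT at days 0, 2 and 6. In WT it stood at 6.61 and 6.03 FPKM at day 0, 6.59 and 6.97 at day 2, 3.16 and 3.11 at day 4 and 6.48 and 6.52 at day 6. In KO it stood at 4.58 and 4.78 FPKM at day 0, 5.02 and 4.84 at day 2, 3.28 and 3.01 at day 4 and 4.22 and 4.41 at day 6. All 4 kinds of culture shared a low at day 4, where the WT and KO libraries overlapped, and parted again at day 6. Without Dex the levels were 4.09 and 3.96 FPKM at day 0, 5.68 and 5.81 at day 2, 3.06 and 2.7 at day 4 and 3.5 and 3.79 at day 6. With Dex they were 6.12 and 6.5 FPKM at day 0, 5.67 and 5.56 at day 2, 3.2 and 3.27 at day 4 and 4.48 and 5.09 at day 6. At day 6 the order was WT, Dex, KO, no Dex, with no overlap between neighbours, and at day 0 the WT and Dex libraries overlapped above the other two.

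Hhip, a secreted or membrane-bound protein that traps the ligands, stayed below 1 FPKM in all libraries and was not tested. Its highest values were at day 0, from 0.24 to 0.42 FPKM over the 8 libraries, and in the Dex organoids of day 4, at 0.31 and 0.41 FPKM. At day 6 it stood at 0.18 and 0.11 FPKM in WT, 0.13 and 0.07 in KO, 0.02 and 0.02 without Dex and 0.18 and 0.15 with Dex. The no-Dex libraries were thus below the other 6 at day 6, and the WT range overlapped those of KO and Dex. With the minimum level dropped, Dex against no Dex was 0.23 on the log2(FPKM + 1) scale at day 4 (limma, adjusted p = 0.00155) and 0.19 at day 6 (adjusted p = 0.00679), and KO against WT at day 6 was -0.06 (adjusted p = 0.458). The 858 tested genes of chromosome 8, where Hhip lies, had a median KO against WT change of 0.35 at day 6, beside -0.05 over the genes of other chromosomes. At days 0, 2 and 4 the chromosome 8 median of KO against WT was 0.005, 0.24 and 0.34. In Dex against WT at day 6 it was 0.35. From day 0 to day 6 it was -0.18 in WT, beside 0.11 on other chromosomes, and 0.14 in KO, beside 0.09. The part of this shift in the Hhip values and in the comparisons with WT was not tested.

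Boc, a co-receptor that helps ligand bind, was low until day 4 and highest in KO at day 6. WT held 0.67 and 0.71 FPKM at day 0, 0.19 and 0.12 at day 2, 0.29 and 0.41 at day 4 and 4.39 and 4.35 at day 6. KO held 0.83 and 0.67 FPKM at day 0, 0.47 and 0.5 at day 2, 1.57 and 1.59 at day 4 and 18.06 and 18.18 at day 6. The cultures overlapped in part at day 0, and WT was below each of the others from day 2 on. The no-Dex cultures held 1.47 and 1.44 FPKM at day 4 and 12.47 and 12.65 at day 6, and the Dex cultures 1.31 and 1.18 at day 4 and 8.95 and 8.52 at day 6. At day 6 all 4 groups were apart, in the order KO, no Dex, Dex, WT. Boc reached the level for a test only through days 4 and 6.

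Gas1, a lipid-anchored co-receptor that also binds ligand, had the widest range of the 9, from 1.4 to 178.84 FPKM. In WT its levels were 1.57 and 1.87 FPKM at day 0, 6.99 and 7.32 at day 2, 18 and 17.92 at day 4 and 48.74 and 48.91 at day 6. In KO they were 1.88 and 1.72 FPKM at day 0, 9.71 and 8.56 at day 2, 37.35 and 38.76 at day 4 and 178.84 and 178.08 at day 6. The lines overlapped at day 0 and the KO organoids were far above WT at days 4 and 6. The no-Dex levels were 32.1 and 33 FPKM at day 4 and 76.4 and 77.61 at day 6, and the Dex levels 42.44 and 43.64 at day 4 and 89.67 and 92.33 at day 6. Both stood between WT and KO at day 6 without overlap, while at day 4 the Dex organoids were the highest.

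Smo, the membrane protein that carries the signal inwards, rose in each culture. WT went from 11.24 and 10.66 FPKM at day 0 to 21.74 and 21.76 at day 2, 49.41 and 48.98 at day 4 and 78.99 and 78.67 at day 6. KO went from 13.08 and 13.29 FPKM at day 0 to 34.91 and 35.58 at day 2, 70.9 and 71.95 at day 4 and 94.29 and 96.18 at day 6. KO was above WT at each day, with the widest ratio at day 2. The Dex cultures were the lowest at day 0, at 8.7 and 9.69 FPKM beside 12.5 and 13.6 without Dex, and at day 6 both stood just above WT, at 85.08 and 83.68 FPKM with Dex and 80.64 and 83.68 without.

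Gli1, the activator whose RNA follows pathway activity, was highest in stem cells. Its WT levels were 12.26 and 12.29 FPKM at day 0, 3.13 and 2.82 at day 2, 1.24 and 1.73 at day 4 and 3.65 and 3.73 at day 6. Its KO levels were 8.41 and 8.65 FPKM at day 0, 2.84 and 3.04 at day 2, 1.85 and 2.14 at day 4 and 1.36 and 1.35 at day 6. WT therefore had a second, smaller high at day 6, and KO was at its lowest there. The no-Dex levels went from 6.81 and 6.77 FPKM at day 0 to 2.89 and 2.58 at day 2, 1.25 and 1.1 at day 4 and 0.31 and 0.28 at day 6. The Dex levels went from 9.17 and 10.11 FPKM at day 0 to 2.2 and 1.82 at day 2, 0.83 and 0.96 at day 4 and 0.93 and 0.91 at day 6. At day 6 the order was WT, KO, Dex, no Dex, all apart.

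Gli2, the main activator in many tissues, was lower at day 2 than at day 0 and higher again at day 6. In WT it stood at 10.36 and 9.61 FPKM at day 0, 1.92 and 1.76 at day 2, 2.49 and 2.39 at day 4 and 7.36 and 7.41 at day 6. In KO it stood at 8.69 and 8.06 FPKM at day 0, 4.43 and 3.77 at day 2, 8.22 and 9.03 at day 4 and 13.29 and 13.5 at day 6. The KO level was below WT in stem cells and above it in organoids at each day. At day 6 the no-Dex and Dex organoids overlapped, at 8.63 and 8.72 FPKM without Dex and 8.48 and 8.79 with it, between WT and KO.

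Gli3, the main repressor, rose in each culture and was lowest in WT at day 6. WT held 1.16 and 1.25 FPKM at day 0, 2.12 and 1.91 at day 2, 5.55 and 5.55 at day 4 and 17.01 and 17.12 at day 6. KO held 1.45 and 1.47 FPKM at day 0, 2.54 and 2.42 at day 2, 10.16 and 10.27 at day 4 and 34.71 and 35.04 at day 6. The no-Dex organoids reached 37.29 and 36.65 FPKM at day 6, just above KO, and the Dex organoids 24.85 and 24.34, between KO and WT. RNA levels do not show how much of the protein was cut to the repressor.

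**Figure D1:**
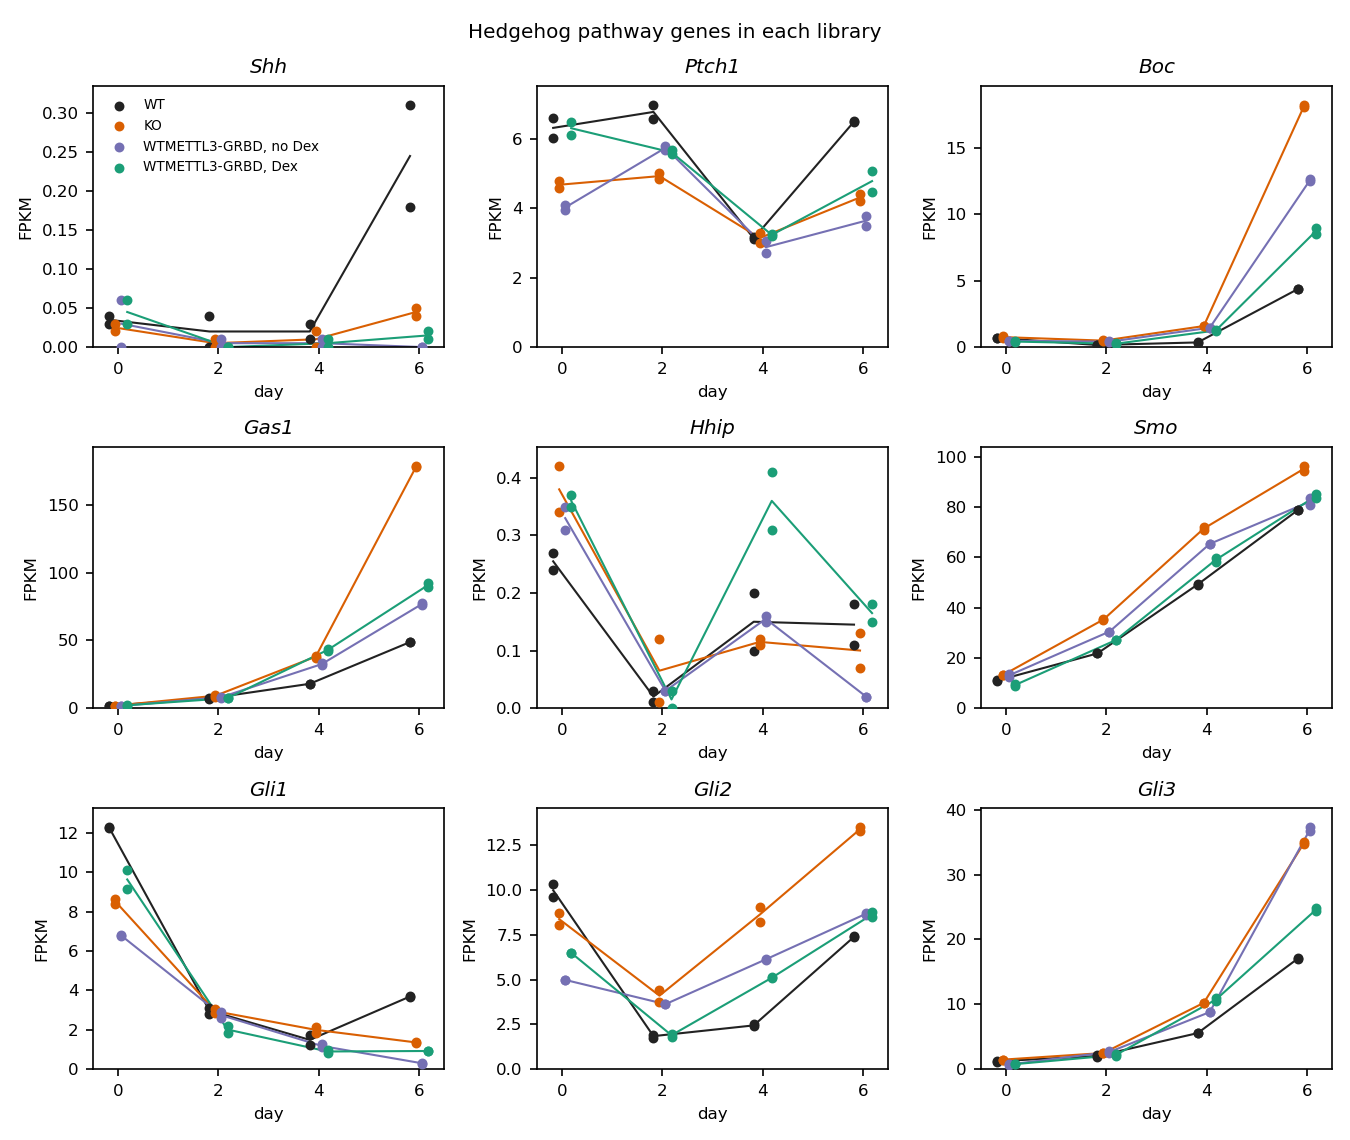
FPKM (vertical axes, linear, from 0) of the 9 Hedgehog pathway genes by day (horizontal axes) in each of the 32 libraries; points are single libraries, lines join the means of 2, and colours give the 4 kinds of culture. Shh is above 0.1 FPKM only in the WT libraries of day 6, Gli1 is highest at day 0, and Boc and Gas1 are highest in KO at day 6.

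Over differentiation, 4 of the 7 tested genes rose from day 0 to day 6 in each culture and Gli1 fell in each. In WT the log2 changes were 4.20 for Gas1, 3.03 for Gli3, 2.74 for Smo and 1.67 for Boc (limma on log2(FPKM + 1), adjusted p under the threshold of 0.05 for each). In KO they were 6.00 for Gas1, 3.87 for Gli3, 2.76 for Smo and 3.45 for Boc. Gli1 had a log2 change of -1.5 in WT and -2.02 in KO, and in the cultures with the construct one of -2.59 without Dex and -2.47 with it. Gli2 fell by 0.39 in WT and rose in the others, by 0.62 in KO, 0.69 without Dex and 0.36 with Dex. Ptch1 did not pass in WT (0.04), KO (-0.10) or the no-Dex cultures (-0.11), and fell by 0.34 with Dex. The members called were 6 of 7 in WT, beside 78.1% of all 16276 genes tested, 6 of 7 in KO beside 80.4%, 6 of 7 without Dex beside 81.9% and 7 of 7 with Dex beside 80.4%. These shares are near the background, and the median over the 7 was 1.67 in WT and 2.76 in KO beside medians over all genes of 0.09 and 0.09.

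The comparison of KO with WT asked what the labelled loss of Mettl3 did to these genes. At day 6 the co-receptors Gas1 and Boc and the repressor Gli3 rose, and the readouts Gli1 and Ptch1 fell. Hhip, the third readout, was too low for a test, and its KO and WT libraries overlapped. Gas1 rose by 1.85 (SE 0.09, adjusted p = 6.64e-13) on the log2(FPKM + 1) scale, a 3.66-fold higher mean FPKM, and Boc rose by 1.83 (SE 0.06, adjusted p = 1.12e-15), 4.15-fold. Gli3 rose by 0.99 (SE 0.05, adjusted p = 3.48e-13), Gli2 by 0.78 (SE 0.06, adjusted p = 2.59e-10) and Smo by 0.27 (SE 0.04, adjusted p = 4.03e-06). Gli1 changed by -0.99 (SE 0.08, adjusted p = 1.96e-09), a 2.72-fold lower mean, and Ptch1 by -0.50 (SE 0.06, adjusted p = 2.72e-07), a 1.51-fold lower mean. All p-values are from limma with Benjamini-Hochberg adjustment over 16276 genes. All 7 tested members were called, 5 higher and 2 lower, where 65.1% of all genes were called. The median over the 7 was 0.78 beside -0.03 over all genes. The 7 calls of day 6 were kept without any 1 library.

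In stem cells (day 0) 5 of 7 were called beside 48.2% of all genes: Smo and Gli3 were higher, by 0.25 and 0.16, and Gli1, Ptch1 and Gli2 were lower, with -0.48, -0.36 and -0.23. Hhip went the other way from Gli1 and Ptch1 there, at 0.14 with the minimum level dropped (limma, adjusted p = 0.0474). Fitted on the 4 compared libraries alone, only the Gli1 call of day 0 remained, and without WT replicate 1 the Gli3 value was 0.13 and not called. At day 2 the calls were 6 of 7 beside 58.9%, 5 higher and Ptch1 lower (-0.39), with Gli2 at 0.84 and Smo at 0.67. Gas1 at day 2 was 0.31, and without KO replicate 1 it was 0.23 and not called. At day 4 the calls were 6 of 7 beside 60.5%, all 6 higher, led by Gli2 with 1.48 (SE 0.06, adjusted p = 3.59e-14), Gas1 with 1.04 (SE 0.09, adjusted p = 5.33e-09) and Boc with 0.94 (SE 0.06, adjusted p = 4.97e-11) by limma. Gli1 was among them with 0.27 and was no longer called without WT replicate 1 (0.13) or KO replicate 2 (0.20), nor in the fit on the compared libraries. Gli3 at day 2 (0.21) was lost in that fit as well. Ptch1 did not differ by the test at day 4, with 0.00, and the sign of that value turned under rescaling.

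The difference between days was tested itself. The KO against WT difference was larger at day 6 than at day 0 by 1.81 (SE 0.13, adjusted p = 4.25e-10) for Gas1, 1.78 (SE 0.08, adjusted p = 9.84e-13) for Boc, 1.01 (SE 0.08, adjusted p = 2.01e-09) for Gli2 and 0.83 (SE 0.06, adjusted p = 1.91e-09) for Gli3 on the log2 scale (limma). For Gli1 it changed by -0.52 (SE 0.12, adjusted p = 0.000779), being further below 0 at day 6. Ptch1 (-0.13, adjusted p = 0.177) and Smo (0.02, adjusted p = 0.759) did not pass. That makes 5 of 7 members, beside 56.9% of all genes.

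The cultures with the construct but no Dex were compared with KO, the line they were made from. The samples hold no KO line with an empty or inactive construct. An effect of the construct and one of making a further line can thus not be told apart. At day 6 no tested member was higher by the test and 6 of 7 were lower, beside 49.0% of all genes called. Gas1 changed by -1.20 (SE 0.09, adjusted p = 1.36e-09), Gli1 by -0.86 (SE 0.08, adjusted p = 3.86e-08), Gli2 by -0.57 (SE 0.06, adjusted p = 5.83e-08) and Boc by -0.50 (SE 0.06, adjusted p = 7.06e-07) by limma on the log2(FPKM + 1) scale. That scale compresses low levels such as those of Gli1. In mean FPKM Gli1 was 4.59-fold lower, Gas1 2.32-fold, Gli2 1.54-fold and Boc 1.44-fold. Smo (-0.21) and Ptch1 (-0.19) moved less, and Gli3 did not pass (0.08, adjusted p = 0.153). The Ptch1 call was lost without KO replicate 2 (-0.17), without no-Dex replicate 1 (-0.15) and in the fit on the compared libraries. At day 0 the calls were 5 of 7, all lower, beside 49.1%, with Gli2 at -0.65 and Gli3 at -0.53. Rescaling reduced these to 3, since Ptch1 (-0.18, then -0.09) and Gli1 (-0.29, then -0.20) were lost. The Ptch1 value of day 0 was also lost without KO replicate 2 (-0.15) or no-Dex replicate 2 (-0.16). In between, 2 of 7 were called at day 2 beside 37.0% and 4 of 7 at day 4 beside 26.7%, the latter all lower. The day 4 count was 3 of 7 in each refit without 1 library.

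Dex against no Dex compared the same line with the construct sent to the nucleus or left in the cytosol, per the series' design. No WT or KO culture was given Dex, so Dex acting by itself and the move of the construct cannot be told apart. At day 6 the readouts Gli1 and Ptch1 rose, and the repressor Gli3 and the co-receptor Boc fell. Gli1 rose by 0.57 (SE 0.08, adjusted p = 1.27e-05), 3.12-fold in mean FPKM, and Ptch1 by 0.32 (SE 0.06, adjusted p = 0.000177), 1.31-fold, by limma on the log2(FPKM + 1) scale. Gli3 changed by -0.57 (SE 0.05, adjusted p = 7.79e-09), a 1.5-fold lower mean, and Boc by -0.48 (SE 0.06, adjusted p = 1.71e-06), a 1.44-fold lower mean. Gas1 rose by 0.24 (adjusted p = 0.0384), and this call was lost without either no-Dex library (0.23 and 0.25) or either Dex library (0.26 and 0.22), with a pseudocount of 0.1, without the minimum level and under rescaling. Smo (0.04, adjusted p = 0.466) and Gli2 (-0.01, adjusted p = 0.96) did not pass. The members called were 5 of 7 beside 42.7% of all genes, and their median was 0.04 beside 0.01. The Ptch1 call was also lost in the fit on the compared libraries alone (adjusted p = 0.0752), where Ptch1 with Dex was 4.48 and 5.09 FPKM.

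This comparison shares no library with KO against WT, so the signs can be set side by side at day 6. Gli1 and Ptch1 were lower in KO than in WT and higher with Dex than without. Gli3 and Boc were higher in KO and lower with Dex. Gas1 was higher in both comparisons, and Smo and Gli2 were called only in the first. The Dex levels of Gli1 stayed below those of KO, at 0.93 and 0.91 beside 1.36 and 1.35 FPKM, and the no-Dex levels were 0.31 and 0.28.

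On the earlier days Dex had other differences. In stem cells labelled as treated, 5 of 7 were called beside 43.4% of all genes. Ptch1 rose by 0.54 (SE 0.06, adjusted p = 3.4e-07), Gli1 by 0.45 (SE 0.08, adjusted p = 0.000165) and Gli2 by 0.32 (SE 0.06, adjusted p = 9.27e-05), while Smo changed by -0.46 (SE 0.04, adjusted p = 1.36e-08) (limma, log2 scale). The call of Gas1 (0.25) rested on single libraries, since it was 0.14 without no-Dex replicate 1 and 0.06 without Dex replicate 1. At day 2 the calls were 5 of 7, all lower, beside 44.3%, led by Gli2 with -0.68 (SE 0.06, adjusted p = 1.48e-08). All genes leaned the same way, with 5134 lower and 2070 higher. The count of 5 was 3 without no-Dex replicate 1 and 2 in the fit on the compared libraries alone. Of the 5, Gli1 (-0.31) was lost without no-Dex replicate 1 (-0.25) or Dex replicate 2 (-0.22), and Boc (-0.17) without no-Dex replicate 1 (-0.11) or Dex replicate 1 (-0.14). Smo (-0.17) was lost under rescaling (-0.079, adjusted p = 0.118). At day 4 the calls were 4 of 7, 2 in each direction, beside 40.2%. Gas1 (0.39) and Gli3 (0.26) were higher, and Gli2 (-0.22) and Smo (-0.14) lower, with Smo lost without Dex replicate 2 (-0.12).

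The Dex difference itself changed between day 0 and day 6 for 5 of 7 members, beside 48.7% of all genes. Smo moved by 0.50 (SE 0.05, adjusted p = 3.22e-07), Gli3 by -0.62 (SE 0.06, adjusted p = 2.4e-07), Boc by -0.42 (SE 0.08, adjusted p = 0.00031) and Gli2 by -0.33 (SE 0.08, adjusted p = 0.00174) by limma on the log2 scale. Ptch1 moved by -0.23, a call lost in 4 of the 8 refits that leave out a library of these 4 groups: without replicate 2 of day 0 in either culture (-0.21 without Dex, -0.19 with Dex), without no-Dex replicate 2 of day 6 (-0.18) and without Dex replicate 1 of day 6 (-0.15). The Boc call was lost with a pseudocount of 0.1 (-0.36, adjusted p = 0.176). Gli1 (0.12) and Gas1 (-0.01) did not pass. For Gli1 this depends on the scale, which compresses low values. Its mean FPKM was 1.42-fold higher with Dex at day 0 and 3.12-fold higher at day 6, where the means were 0.92 and 0.295 FPKM. An equal Dex difference of Gli1 on both days is thus not shown.

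**Figure D2:**
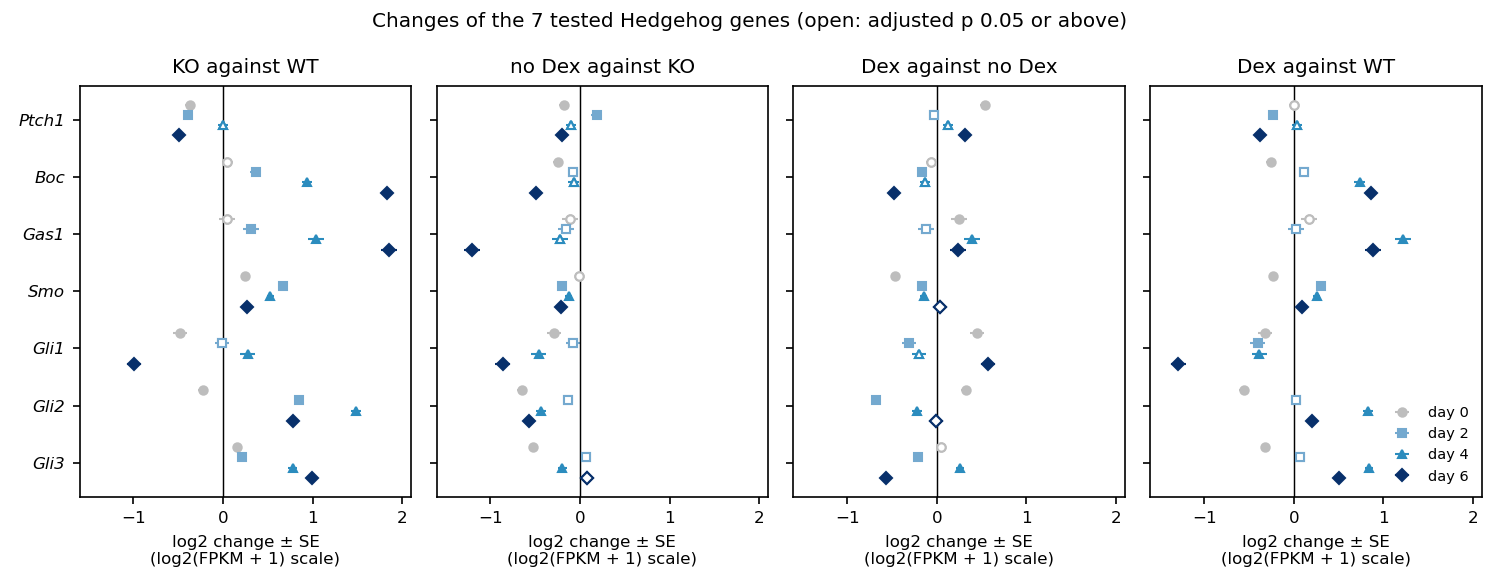
Log2 change ± SE (horizontal axes, on the log2(FPKM + 1) scale) of the 7 tested genes in KO against WT, no Dex against KO, Dex against no Dex and Dex against WT; shapes and shades give the day, and open symbols did not pass. At day 6 Gas1 and Boc lie near 1.85 and 1.83 in KO against WT, and Gli1 lies at -0.99 there and at 0.57 in Dex against no Dex.

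Dex organoids were compared with WT to see how far their levels still differed. At day 6 all 7 members were called, 5 higher and 2 lower, beside 61.4% of all genes. Gli1 changed by -1.29 (SE 0.08, adjusted p = 6.22e-11) and Ptch1 by -0.38 (SE 0.06, adjusted p = 1.2e-05), while Gas1 rose by 0.88 (SE 0.09, adjusted p = 5.55e-08), Boc by 0.86 (SE 0.06, adjusted p = 1.74e-10) and Gli3 by 0.50 (SE 0.05, adjusted p = 1.3e-08) by limma on the log2(FPKM + 1) scale. Gli2 rose by 0.20. Smo rose by 0.10 (adjusted p = 0.0345), and that call was lost without any 1 of the 4 libraries (0.09 to 0.11) and without the minimum level (adjusted p = 0.0539). These directions are those of KO against WT, but the comparisons share the WT libraries and are not separate evidence. The earlier counts were 5 of 7 at day 0 beside 49.8%, 3 of 7 at day 2 beside 29.4% and 6 of 7 at day 4 beside 44.7%.

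The wider pathway was followed with 24 further genes, of which 23 were tested and Dhh was not. In KO against WT at day 6, 13 were higher, 3 lower and 7 not called, where 65.1% of all genes were called, so the share called is near the background. The median was 0.20 beside -0.03 over all genes. Ihh, a second ligand, stood at 4.8 and 4.94 FPKM in WT at day 6 and at 0.28 and 0.3 in KO, 0.24 and 0.3 without Dex and 0.55 and 0.73 with Dex. It changed by -2.19 (SE 0.07, adjusted p = 2.62e-15) in KO against WT by limma on the log2(FPKM + 1) scale. Ihh was thus well above Shh on the scale per length in the WT organoids. Cdon, a co-receptor related to Boc, rose from between 7.91 and 8.57 FPKM to between 34.28 and 34.69, a log2 change of 1.94. Scube1, a secreted protein of the family that helps release ligand, was lower by the test at day 4 (-1.18) and day 6 (-1.87) in KO, and at day 6 higher with Dex than without (1.18), at 36.99 and 37.51 FPKM beside 15.79 and 15.86. Scube2 of the same family was higher without Dex than in KO (1.02) and lower with Dex than without (-1.47).

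Of the 14 genes that act inside the cell, such as Sufu and Kif7, which hold the GLI proteins back, all were tested. In that group 9 were higher and none lower in KO against WT at day 6, 1 was higher and 12 lower without Dex than in KO, and 7 were higher and none lower with Dex than without. The shares of all genes called, in either direction, were 65.1%, 49.0% and 42.7%, so the first and the last of these counts are near the background. Their medians were 0.20, -0.31 and 0.10, beside -0.03, -0.01 and 0.01 over all genes. The 23 tested genes of the whole list gave 2 higher and 18 lower without Dex against KO at day 6. It gave 12 higher and 3 lower in Dex against no Dex, beside the same shares of 49.0% and 42.7%. No test of the list as a whole was run.

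**Figure D3:**
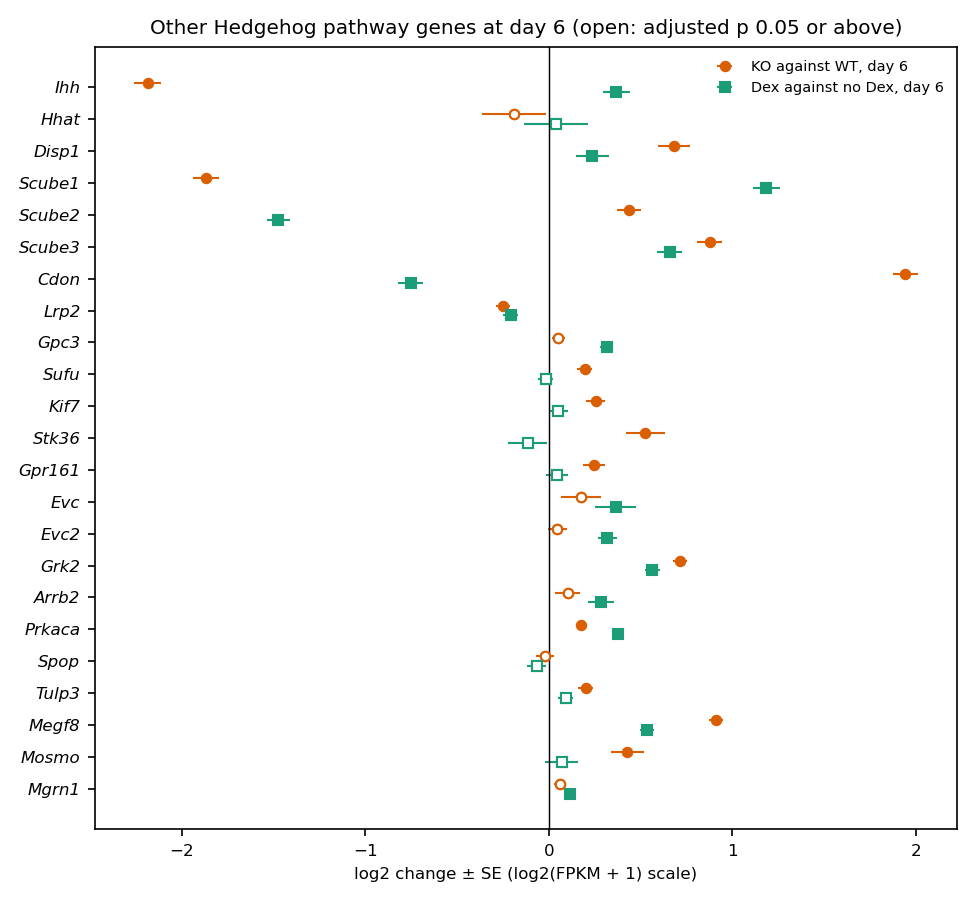
Log2 change ± SE (horizontal axis, on the log2(FPKM + 1) scale) at day 6 of the 23 tested genes of the wider pathway list in KO against WT (circles) and Dex against no Dex (squares); open symbols did not pass. Ihh and Scube1 lie at -2.19 and -1.87 in KO against WT and Cdon at 1.94.

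Genes that Hedgehog signalling is known to switch on in ventral tissue, and genes of dorsal tissue, were set beside the members. Of 10 ventral genes 6 were tested, of which 5 were lower and none higher in KO against WT at day 6, beside 65.1% of all genes called, with a median of -1.10. Nkx6-1, a ventral gene too low for a test, went the other way, with mean levels of 0.61 FPKM in KO and 0.325 in WT and no overlap. At day 2 the list also differed in direction, with 2 of the 6 higher and 1 lower beside 58.9% of all genes. The 2 were Nkx2-9 with 1.83, from a mean of 1.135 FPKM in WT to 6.56 in KO, and Nkx6-2 with 1.32, from 2.31 to 7.305. These 3 genes were singled out after their values were seen. Vax2 stood at 52.91 and 54.32 FPKM in WT, 0.44 and 0.57 in KO, 0.03 and 0.22 without Dex and 6.23 and 6.87 with Dex. Vax1 stood at 43.61 and 46.05 FPKM in WT but at 0.39 and 2.26 in KO, so its KO libraries differed widely. The log2 changes were -5.18 for Vax2, -4.43 for Vax1 and -1.62 for Foxa2, a marker of floor plate and endoderm. Vax1 and Vax2 are also expressed in the eye field's ventral part, and the eye field list was lower in the same libraries. In Dex against no Dex at day 6, 3 of the 6 were higher and none lower, beside 42.7% of all genes called, with Vax2 at 2.75. One of the 3, Foxa2 (0.52), was no longer called without Dex replicate 1 (0.24, adjusted p = 0.0516) or in the fit on the compared libraries alone (adjusted p = 0.173).

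All 6 dorsal genes were tested. In KO against WT at day 6, 5 were higher and 1 lower, beside 65.1% of all genes called. Their median was 3.11 beside -0.03 over all genes. The log2 changes were 4.45 for Pax3, 4.26 for Msx1, 3.79 for Pax7, 2.44 for Msx2 and 2.20 for Gdf7, while Bmp4, a dorsal signal, was lower. Pax3 stood at 0.5 and 0.61 FPKM in WT, 32.83 and 32.96 in KO, 19.34 and 19.58 without Dex and 3.79 and 3.82 with Dex. Dex thus lay between the others for Pax3, and its change against no Dex was -2.09. Pax7 changed alike (-1.51), while Bmp4 (2.97) and Msx2 (1.06) were higher with Dex. Against KO, the no-Dex organoids were lower in Msx1 (-1.35) and Pax7 (-1.32). Pax3, Pax7, Msx1 and Msx2 are also expressed in neural crest.

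**Figure D4:**
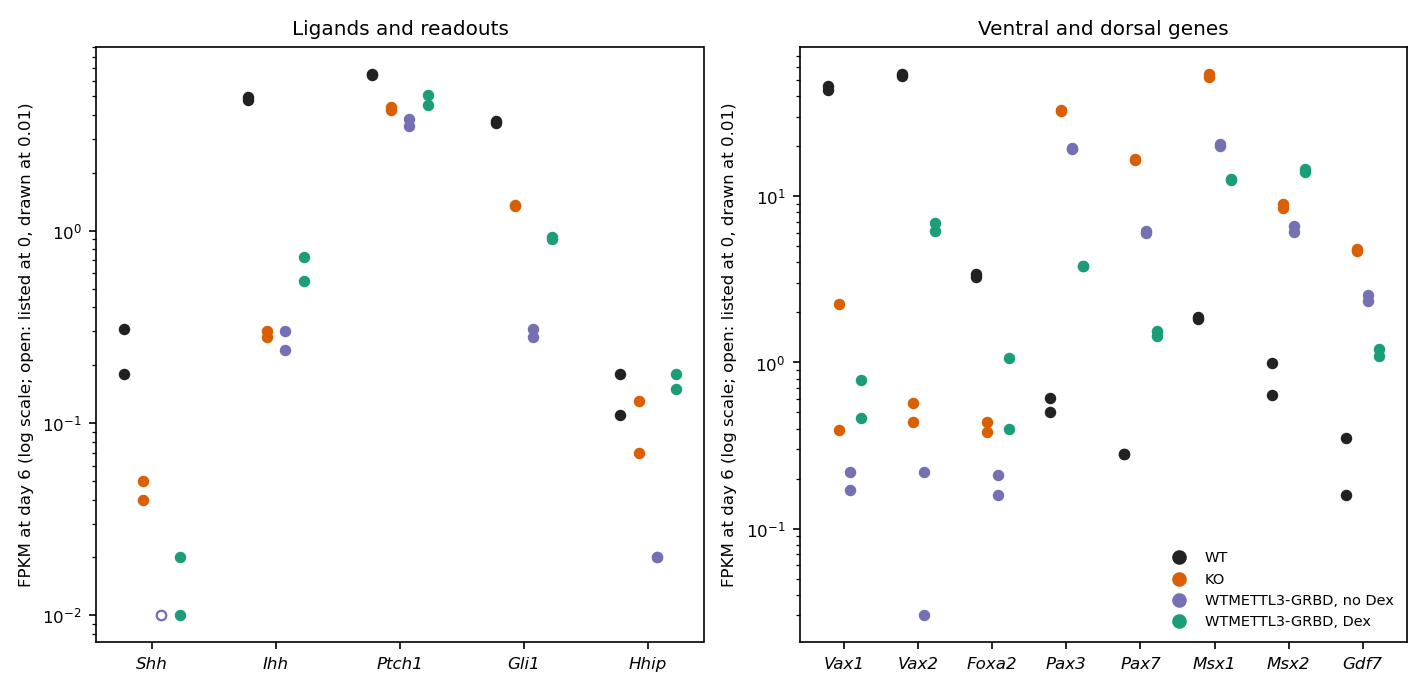
FPKM at day 6 on a log axis, 1 point a library and 2 a culture, for the ligands and readouts (left) and for ventral and dorsal genes (right); open points are listed at 0 and drawn at 0.01. Both WT libraries are the highest for Shh, Ihh, Ptch1, Gli1, Vax1, Vax2 and Foxa2, and the lowest for Pax3, Pax7, Msx1, Msx2 and Gdf7.

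Markers of several other cell types also differed between KO and WT. The shares of all genes called there were 48.2%, 58.9%, 60.5% and 65.1% at days 0, 2, 4 and 6. The 6 genes of extraembryonic endoderm, a tissue that makes Ihh, were all lower in KO than in WT at each of the 4 days, stem cells included, where they summed to between 22.48 and 23.77 FPKM in WT and between 4.16 and 4.32 in KO. They summed to between 67.25 and 67.35 FPKM in WT at day 6, between 11.38 and 11.41 in KO, between 8.53 and 8.68 without Dex and between 11.17 and 11.8 with Dex. Gata4, a defining gene of that list, was between 0.04 and 0.08 FPKM in KO and between 9.79 and 10.17 in WT. The 4 stem cell genes (Pou5f1, Nanog, Zfp42, Klf4) were all lower in KO than in WT at day 6, with a median of -1.12. Their sums were between 69.07 and 70.17 FPKM in WT, between 24.16 and 26.05 in KO, between 27.62 and 29.32 without Dex and between 24.18 and 26.02 with Dex. Gli1, which was highest in stem cells, was also lower in these 3 cultures than in WT at day 6. The 2 did not move together throughout. In WT the stem cell sums were between 428.16 and 434.23 FPKM at day 4 and fell by day 6, while Gli1 rose from 1.24 and 1.73 FPKM to 3.65 and 3.73. Of the 3 cultures at day 6, no Dex had the highest stem cell sums and the lowest Gli1, at 0.28 and 0.31 FPKM. The 4 neural crest genes were all higher in KO, with sums between 43.73 and 43.82 FPKM beside between 2.52 and 2.61 in WT, between 48.46 and 49.52 without Dex and between 18.59 and 19.66 with Dex. The mesenchyme list, with 3 of 5 genes tested and all 3 higher in KO, summed to between 24.71 and 26.08 FPKM in KO and between 2.24 and 2.45 in WT. For floor plate and notochord, 2 of 5 genes were tested and both were lower in KO. Noto, a notochord gene, was listed at 0 in WT and between 0 and 0.05 in KO, and Foxa1 between 0.09 and 0.14 in WT. That list summed to between 10.45 and 10.58 FPKM in WT, between 1.49 and 1.68 in KO, between 1.3 and 1.43 without Dex and between 1.44 and 2.32 with Dex. Of 6 mesendoderm and definitive endoderm genes 4 were tested, with 1 higher and 2 lower in KO at day 6. That list summed to between 28.23 and 28.52 FPKM in WT and between 44.1 and 47.16 in KO. Midbrain and hindbrain genes, with 3 of 5 tested, 1 higher and 1 lower, summed to between 3.44 and 3.78 FPKM in WT. In KO that sum was between 3.29 and 3.46 FPKM. The part of these cell types in the changes of Gas1, Boc, Gli1, Ptch1 and Ihh was not tested.

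The genes most like each member over the 16 group means of log2(FPKM + 1) were listed as a description, from 3766 candidates, and the 16 points share a course over days. Smo was most like Apba2 (Pearson's r = 0.995), Gas1 most like Itprip (0.994), Gli3 most like Tmx1 (0.990) and Boc most like Zfp319 (0.988). Gli2 was most like Sulf2 (0.967) and Gli1 most like Zc3hav1 (0.966). Ptch1 had no close match, its nearest being Abcc5 (0.80), Stoml1 (0.79) and Lypla1 (0.77). Among the next in line were Mettl9 and Rnf130 for Smo, Zfp629 and Rtl6 for Gas1, Mex3b for Gli3, Pygo1 and Srcin1 for Boc, Galnt2 and Csrnp2 for Gli2, and Ncoa3 and Tex2 for Gli1. Between members, r was 0.97 for Gli3 and Gas1, 0.97 for Smo and Gas1, and 0.57 for Ptch1 and Gli1. For Smo and Gli1 it was -0.87, but over the 4 cultures within a day it was -0.58, 0.07, 0.31 and -0.23 in order of days. The other pairs also varied within days, from -0.04 to 1.00 for Gli3 and Gas1, -0.79 to 0.99 for Smo and Gas1 and 0.02 to 0.95 for Ptch1 and Gli1.

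Since the study concerns m6A, the letters GGACT, the most common form of the motif at which m6A is placed, were counted on the given strand of the longest protein-coding transcript of each gene. Ptch1 had 17 (2.20 per kb) and Smo 8 (2.12 per kb), beside a median of 1.05 per kb over 13588 tested genes. Gli2 had 11 (1.66 per kb), Gli3 13 (1.59 per kb), Boc 6 (1.35 per kb) and Gli1 5 (1.23 per kb), all above that median. Gas1 had 2 (0.675 per kb), Shh 1 (0.351 per kb) and Hhip 2 (0.22 per kb), all below it. Gas1 and Boc, which changed by 1.85 and 1.83 on the log2 scale in KO against WT at day 6, thus lay on opposite sides of the median. No m6A was measured in these files, and a match is not a methylated site.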

How the data were processed

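PolyA RNA of 32 libraries was measured. The deposited values are FPKM per gene, computed by the authors and rounded. Per the submitters' processing notes, STAR, Cuffdiff and mm10 were used, with roles, versions and strand setting not given in the sources used here. Groups came from the labels, each with 2 libraries. The members and gene lists were chosen with earlier results of these data known.

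Tests used limma 3.58.1 in R 4.3.3 on log2(FPKM + 1), which understates changes of low genes. The filter asked for 1 FPKM or more in at least 2 libraries and kept 16276 genes. The fit took all 32 libraries, had a mean for each of 16 groups (residual degrees of freedom 16) and used eBayes with a trend. Tests were two-sided, and a Benjamini-Hochberg adjusted p under 0.05 was called. In 5 simulations of KO against WT at day 6 on 16276 genes, between 191 and 197 of 200 changed genes were recovered, with 4.05% of calls false. The changed genes were drawn from those with higher levels and shifted by 1 log2 unit, with normal noise and all other genes unchanged. Neither figure covers smaller changes, low genes or data in which most genes differ. Beyond the members, genes of the pathway, ventral and dorsal lists were named where called with a log2 change of at least 1 at day 6, or at day 4 in KO against WT, with up to 5 a list and comparison. Likeness used the 3 genes with the highest r per member. A few genes are not reported here and were left out of the lists and their counts.

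Alternatives were a pseudocount of 0.1, no minimum level, a mean of at least 2 FPKM, median-of-ratios rescaling, a replicate block, the compared groups alone, and leaving out each library. Depth was estimated in Python 3.11.15 with pandas 2.3.3 and NumPy 2.4.6 from the steps between low values of single-transcript genes. Between 79.5% and 92.1% of those values lay within 0.2 of a whole fragment (40.0% by chance), with 280 to 310 bases taken off the length, and simulated depths were recovered within 0.27%. Annotation came from GENCODE M21, which matched 99.4% of rows. Log values of duplicate libraries correlated at 0.992 to 0.995 over genes.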

Additional observations from a re-analysis of the deposited data

Results flagged for a closer look

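For 5 members the KO against WT difference at day 6 differed from that at day 0, by limma's interaction test on the log2(FPKM + 1) scale. The difference of differences was 1.81 for Gas1, 1.78 for Boc, 1.01 for Gli2, 0.83 for Gli3 and -0.52 for Gli1. For Gli2 the direction turned, since KO was below WT at day 0 and above it at day 6.

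For 5 members the Dex against no Dex difference changed between these days, by 0.50 for Smo, -0.62 for Gli3, -0.42 for Boc, -0.33 for Gli2 and -0.23 for Ptch1. Smo was lower with Dex at day 0 and did not differ by the test at day 6, while Ptch1 was higher with Dex on both days.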

How the results depend on the processing

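No called change of a named gene turned its direction under any alternative run. Of 147 called gene results, 18 were lost in fits on the compared groups alone, 5 under rescaling, 4 with a pseudocount of 0.1 and 4 without a minimum level. None was lost with a replicate block, nor any of the 131 left with a mean of at least 2 FPKM. Of 628 refits of called results without 1 library, 31 lost the call. Among the counts of members, only the larger changes are listed here. Rescaling gave 3 in place of 5 for no Dex against KO at day 0. Fits on the compared groups alone gave 1 in place of 5 for KO against WT at day 0, 3 in place of 5 for no Dex against KO at day 0, 1 in place of 2 for no Dex against KO at day 2, 2 in place of 5 for Dex against no Dex at day 2 and 1 in place of 3 for Dex against WT at day 2. These fits have 2 residual degrees of freedom in place of 16. Refits without 1 library also moved counts, such as those of Dex against no Dex and of no Dex against KO at day 2. The counts of Dex against no Dex and of Dex against WT at day 6 were lower in each such refit than in the full fit. A lone library left in a group was then assumed to vary like the others.

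Values near 0 that were not called changed sign. Under rescaling these were Ptch1 in KO against WT at day 4 (-0.065), Smo in no Dex against KO at day 0 (0.085), Ptch1 in Dex against no Dex at day 2 (0.051), Ptch1 in WT between days (-0.044) and the change of the Dex difference of Gas1 (0.0027). Without 1 library the ranges were -0.67 to 0.21 for Bmp4 and -0.057 to 0.011 for Ihh at day 6 without Dex against KO. In KO against WT they were -0.017 to 0.11 for Boc and -0.036 to 0.12 for Gas1 at day 0, -0.068 to 0.044 for Gli1 at day 2, and -0.044 to 0.050 for Ptch1 and -0.26 to 0.052 for Vax1 at day 4. In Dex against no Dex at day 6 they were -0.029 to 0.017 for Gli2 and -0.15 to 0.043 for Mettl3. Others were -0.20 to 0.18 for the change of the Dex difference of Gas1, -0.013 to 0.057 for that of the KO difference of Smo, -0.021 to 0.093 for Ptch1 in WT between days, -0.071 to 0.042 for Smo at day 0 and -0.11 to 0.26 for eGFP at day 6, both in no Dex against KO. Causes were not tested. Rescaling moved the median over all genes between days from 0.17 to 0.04 without Dex and from 0.14 to 0.03 with Dex.

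With the replicate number as a replicate block, 7 of 7 members were called in KO against WT at day 6 and 5 of 7 in Dex against no Dex, as without it. Differences within duplicates had correlations of -0.09 to 0.13 among 120 pairs of groups, and the replicate numbers were not taken as pairs. Depth limits Shh and Hhip, which rest on few fragments.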
